A study of Mus musculus with 5 samples.

Results

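The change in gene expression between 8 h and 24 h after hCG was compared between double-knockout and wild-type granulosa cells, to find the genes whose time change depended on genotype. The comparison used 4 of the 5 arrays of the series, 1 array per group: knockout at 24 h, knockout at 8 h, wild type at 24 h and wild type at 8 h. All mice had received eCG for 48 h, which drives follicle growth, and then hCG, which takes the place of the ovulatory surge of luteinizing hormone. The knockout mice carried floxed (fl/fl) alleles of both C/EBP genes and the transgene Cyp19-cre, in which the promoter of the aromatase gene of granulosa cells drives Cre recombinase. The other mice are labelled wild type only, and the sources used here do not state whether they carried floxed alleles. The animals were 24 days old at 24 h and 23 days old at 8 h. Nor do they state whether an array held RNA of 1 animal or of a pool. The fifth array, of the knockout at 4 h, has no wild-type partner and was not used here.

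C/EBPα and C/EBPβ, a pair of related DNA-binding proteins, drive late differentiation in liver, fat and myeloid cells. In the ovary, the ovulatory surge induces C/EBPβ in granulosa cells. Over the hours that follow, these cells leave the cell cycle, release the egg with its cumulus matrix and turn into the progesterone-producing luteal cells of the corpus luteum, while blood vessels and stroma grow in from the theca. The series asked which genes of ovulation and luteinization depend on these factors.

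For each gene, the interaction is the log2 change from 8 h to 24 h in the knockout minus the same change in wild type. A negative value means that the gene's change was lower in the knockout (a smaller rise, a larger fall or a fall in place of a rise), and a positive value that it was higher. Intensities under 22 were raised to 22 first, to limit the weight of differences among dim values. About 39.5% of all deposited values lie under that level, and noise there was not measured. With values as measured, 98.7% of the calls below were shared. A gene was considered if 1 of its 4 values reached 22, which 13326 of 18194 genes did. It was called lower or higher when the interaction reached 2-fold, a log2 value of 1. There are no replicates, so no difference below has a test or a p-value. The spread between different probe sets of a gene gives technical error only, and not the part shared by probe sets on an array. This spread had an SD of 0.34 in log2 units for a single probe set. It was taken over the 6047 genes that had a second probe set above 22. Of the called genes with such a second probe set, it had the same sign for 144 of 155 called lower and 219 of 250 called higher, and it reached 2-fold for 75 and 117 of them. The 18 hybridization control probe sets had a median interaction of 0.15 with an SD of 0.10.

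Cebpa and Cebpb, the targeted genes, were below their wild-type levels at 24 h and at 8 h, and their interactions had opposite signs. Cebpb had an intensity of 85 at 24 h and 1127 at 8 h in the knockout, against 3976 at 24 h and 7436 at 8 h in wild type, an interaction of -2.83. The second probe set of Cebpb gave -2.68. Cebpa was 38 at 24 h and 19 at 8 h in the knockout, against 352 at 24 h and 685 at 8 h in wild type. Its interaction of 1.75 rests on a knockout value under 22, and with values under 44 raised to 44 it was no longer called. Which part of each gene Cre removes is not stated in the labels, so a probe set outside it would not check the deletion. Among all 17 granulosa cell markers of a list of 20 that were matched, none was under 22 on any array, and their summed intensity was 74927 at 24 h and 61449 at 8 h in the knockout, against 74894 at 24 h and 63687 at 8 h in wild type.

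The time change depended on genotype by at least 2-fold for 995 genes, 7.47% of those considered. There were 375 genes with a lower interaction (2.81%) and 620 with a higher one (4.65%). Most were near the threshold: 49 of the lower and 70 of the higher genes reached 4-fold, a log2 value of 2. The balance between both directions depended on the scaling of the arrays. Higher genes made up 62.3% of the calls with the values as deposited and 52.4% with array medians aligned. They made up 58.5% with quantile normalization and 86.1% with the mean of the housekeeping list aligned. In that last scaling the median interaction of all genes was 0.35 in place of 0.06. The housekeeping mean includes 2 genes called lower, Pgk1 (-1.58) and Hprt (-1.03), while the median interaction of that list was -0.05. Across the 13326 genes, which are not independent replicates, the knockout and the wild-type change had r = 0.69 (Spearman 0.59).

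**Figure D1:**
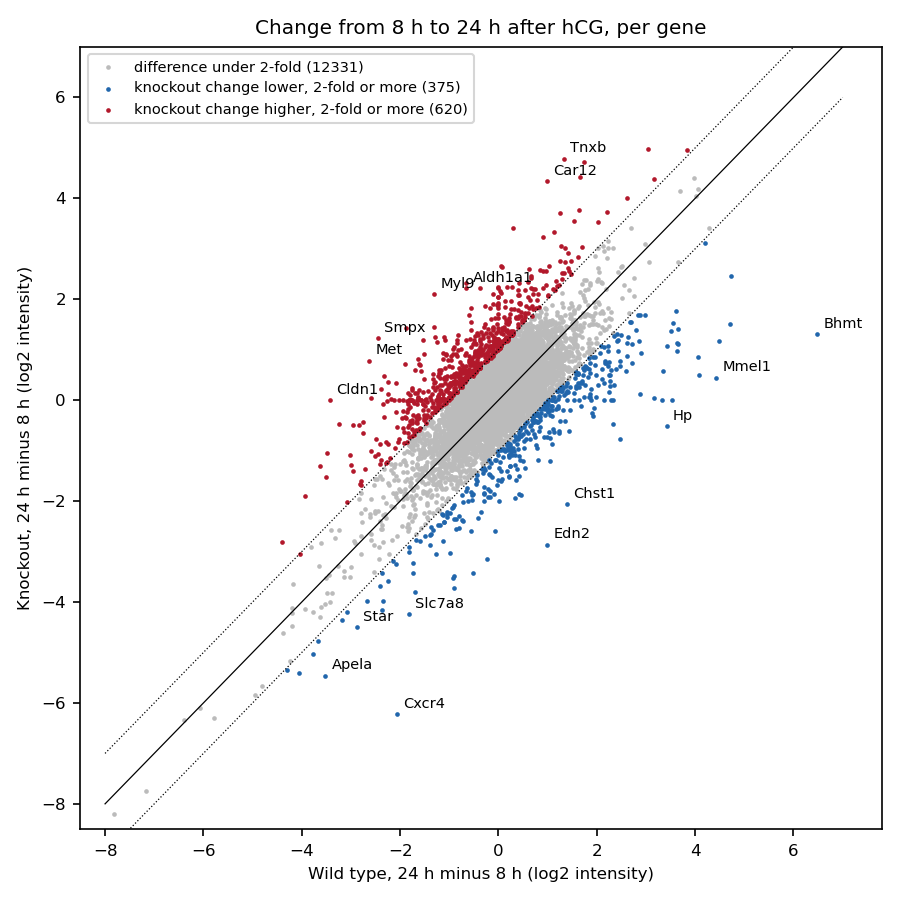
Log2 change from 8 h to 24 h after hCG in the knockout (vertical axis) against the same change in wild type (horizontal axis), 1 point per gene, 13326 genes. The solid line marks equal changes and the dotted lines an interaction of 2-fold; 375 genes lie below the band, with Bhmt and Cxcr4 farthest out, and 620 above it.

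The called genes were sorted by what each genotype did on its own, counting a change of 2-fold or more as a rise or a fall. Over all genes considered, 6.22% rose and 4.81% fell in the knockout, and 5.09% rose and 6.0% fell in wild type. Of the 375 lower genes, 134 changed by less than 2-fold in the knockout while they rose in wild type. A further 92 fell in the knockout and changed by less than 2-fold in wild type, 42 fell more steeply in the knockout than in wild type, and 30 rose in both but less in the knockout. Of the 620 higher genes, 207 rose in the knockout and changed by less than 2-fold in wild type, and 189 fell in wild type while they changed by less than 2-fold in the knockout. Rises in both genotypes that were steeper in the knockout accounted for 35 genes, and falls in both that were shallower there for 22. In 75 lower and 158 higher genes neither change reached 2-fold alone. Opposite changes of 2-fold or more were seen in 11 genes.

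**Figure D2:**
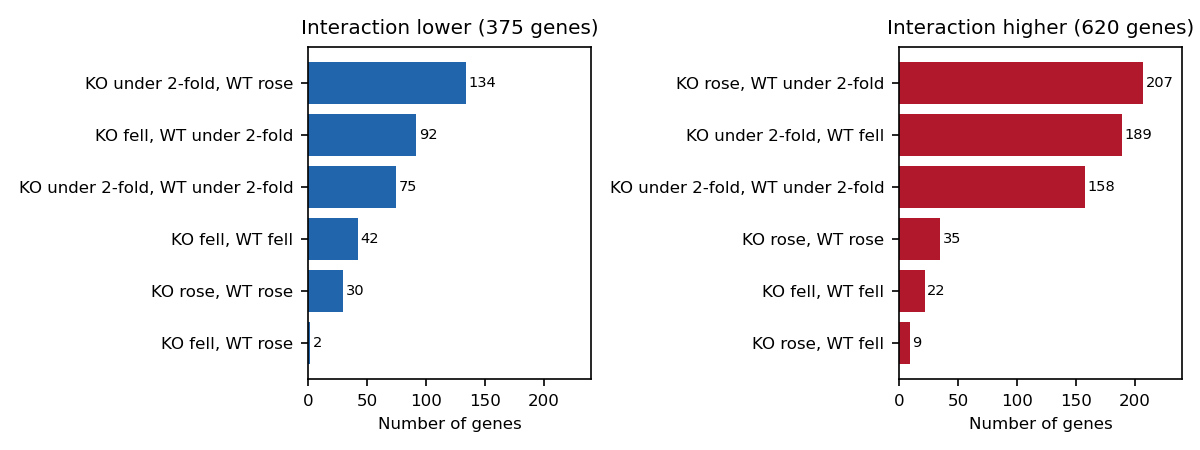
Number of genes called lower (left) and higher (right) by the interaction, split by the change from 8 h to 24 h in the knockout (KO) and in wild type (WT). The largest groups were wild-type rises under 2-fold in the knockout (134 genes) and knockout rises under 2-fold in wild type (207 genes).

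The same genes can be sorted by the time at which the genotypes differed. At 24 h 3.58% of all genes considered were lower and 2.86% higher in the knockout by 2-fold, and at 8 h 3.59% were lower and 1.34% higher. Of the genes called lower, 225 had a lower knockout level at 24 h, and 71 had a higher one at 8 h. Of the genes called higher, 207 were higher in the knockout at 24 h and 256 were lower there at 8 h. Of the higher genes, 5 met both conditions with opposite signs, lower at 8 h and higher at 24 h.

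Several of the lowest interactions belonged to genes that rose in wild type and stayed dim in the knockout. Bhmt, which makes methionine from homocysteine and betaine, had intensities of 94 at 24 h and 38 at 8 h in the knockout, against 8343 at 24 h and 93 at 8 h in wild type. Its interaction was -5.18, the lowest of all genes, which is a 36.3-fold gap between the rises. Mmel1, a membrane peptidase related to neprilysin, was 30 at 24 h and 13 at 8 h in the knockout, against 601 at 24 h and 28 at 8 h in wild type (interaction -3.98). Hp, which encodes the hemoglobin-binding acute-phase protein haptoglobin, was 26 at 24 h and 37 at 8 h in the knockout, against 558 at 24 h and 52 at 8 h in wild type (-3.93). In each of these genes 1 array, wild type at 24 h, stood high, and the other 3 lay together.

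The same pattern was seen in genes of adhesion, transport and signalling. Parvb, a parvin that links integrins to actin, was 65 at 24 h and 46 at 8 h in the knockout, against 1169 at 24 h and 69 at 8 h in wild type. Slc12a8, a member of the cation and chloride cotransporter family, was 81 at 24 h and 36 at 8 h in the knockout, against 1600 at 24 h and 71 at 8 h in wild type. Its interaction was -3.32, and its second probe set gave -3.38. Mpzl2, an epithelial adhesion protein, had an interaction of -3.53 with 3 of its 4 values under 22, and only wild type at 24 h, at 255, stood out. Mapkapk3, a kinase activated by p38, was 115 at 24 h and 196 at 8 h in the knockout, against 1175 at 24 h and 212 at 8 h in wild type. Pik3c2g, a lipid kinase, Slc11a1, a metal transporter of phagosomes, and D630023F18Rik had interactions of -3.33, -3.12 and -3.20. Wild type at 24 h again held the highest value in all 3, at 231, 499 and 452.

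Other genes rose in both genotypes, but less in the knockout. Timp4, an inhibitor of metalloproteinases, was 80 at 24 h and 28 at 8 h in the knockout, against 574 at 24 h and 18 at 8 h in wild type (interaction -3.19, second probe set -3.06). Rab27a, a small GTPase of secretory vesicle docking, was 159 at 24 h and 29 at 8 h in the knockout, against 1281 at 24 h and 48 at 8 h in wild type (-2.28). Mmd2, a membrane protein of the progestin and adipoQ receptor family, was 134 at 24 h and 62 at 8 h in the knockout, against 1213 at 24 h and 96 at 8 h in wild type (-2.55). At 24 h the knockout level of each of these genes was at least 7-fold below the wild-type level, and at 8 h the genotypes lay within 2-fold. Cdkn1b, which encodes the cell cycle inhibitor p27, had an interaction of -1.26 and rose by at least 2-fold in wild type only. It was 2332 at 24 h and 1441 at 8 h in the knockout, against 3554 at 24 h and 917 at 8 h in wild type.

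Another group fell in the knockout by more than in wild type, from like levels at 8 h. Cxcr4, the receptor for the chemokine CXCL12, was 30 at 24 h and 2238 at 8 h in the knockout, against 614 at 24 h and 2567 at 8 h in wild type. Its interaction was -4.16. Slc7a8, a transporter of large neutral amino acids, was 245 at 24 h and 4629 at 8 h in the knockout, against 1199 at 24 h and 4243 at 8 h in wild type (-2.42). Klf6, a zinc finger transcription factor, was 85 at 24 h and 947 at 8 h in the knockout, against 372 at 24 h and 698 at 8 h in wild type (-2.57). Its second probe set was 143 at 24 h and 630 at 8 h in the knockout, against 235 at 24 h and 427 at 8 h in wild type (-1.28). Bhlhe40, a repressor of the circadian loop, was 167 at 24 h and 607 at 8 h in the knockout, against 661 at 24 h and 708 at 8 h in wild type (-1.76). The genotypes lay within 2-fold of each other at 8 h in all 4 of these genes and parted at 24 h. On the second probe set of Klf6, however, they lay within 2-fold at 24 h as well.

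A smaller group began higher in the knockout at 8 h and met wild type at 24 h. Oit3 was 24 at 24 h and 213 at 8 h in the knockout, against 17 at 24 h and 26 at 8 h in wild type (-2.91). Bambi-ps1, a pseudogene, was 25 at 24 h and 269 at 8 h in the knockout, against 26 at 24 h and 37 at 8 h in wild type (-2.92). Apela, a peptide ligand of the apelin receptor, was 15 at 24 h and 967 at 8 h in the knockout, against 11 at 24 h and 252 at 8 h in wild type (-1.94). Lif, a cytokine of the interleukin-6 family, was 41 at 24 h and 207 at 8 h in the knockout, against 38 at 24 h and 51 at 8 h in wild type, an interaction of -1.91 that was not called with the mean of its probe sets. Abcc2, an export pump, and Sh3gl3, an endophilin, had interactions of -2.53 and -2.11. In all 6 genes the knockout at 8 h was the highest array.

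Edn2, the endothelin peptide that contracts the follicle wall at ovulation, crossed over. It was 83 at 24 h and 603 at 8 h in the knockout, against 208 at 24 h and 105 at 8 h in wild type, an interaction of -3.85. It was the only called gene that was 2-fold higher in the knockout at 8 h and 2-fold lower at 24 h. Apln, the apelin peptide, was 45 at 24 h and 62 at 8 h in the knockout, against 1491 at 24 h and 295 at 8 h in wild type (-2.80), so that the genotypes differed by 2-fold at both times and more at 24 h. In the list of angiogenic factors, 4 of 24 genes (16.7%) were lower and 6 (25%) higher, beside 2.81% and 4.65% of all genes considered. The list median of 0.07 changed sign with array medians aligned. Vegfd was 97 at 24 h and 89 at 8 h in the knockout, against 107 at 24 h and 505 at 8 h in wild type (2.36), and Vegfc had an interaction of 2.21. Vegfa, with Edn2, Apln and Nrp1 on the lower side, was 383 at 24 h and 439 at 8 h in the knockout, against 891 at 24 h and 418 at 8 h in wild type (-1.29).

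**Figure D3:**
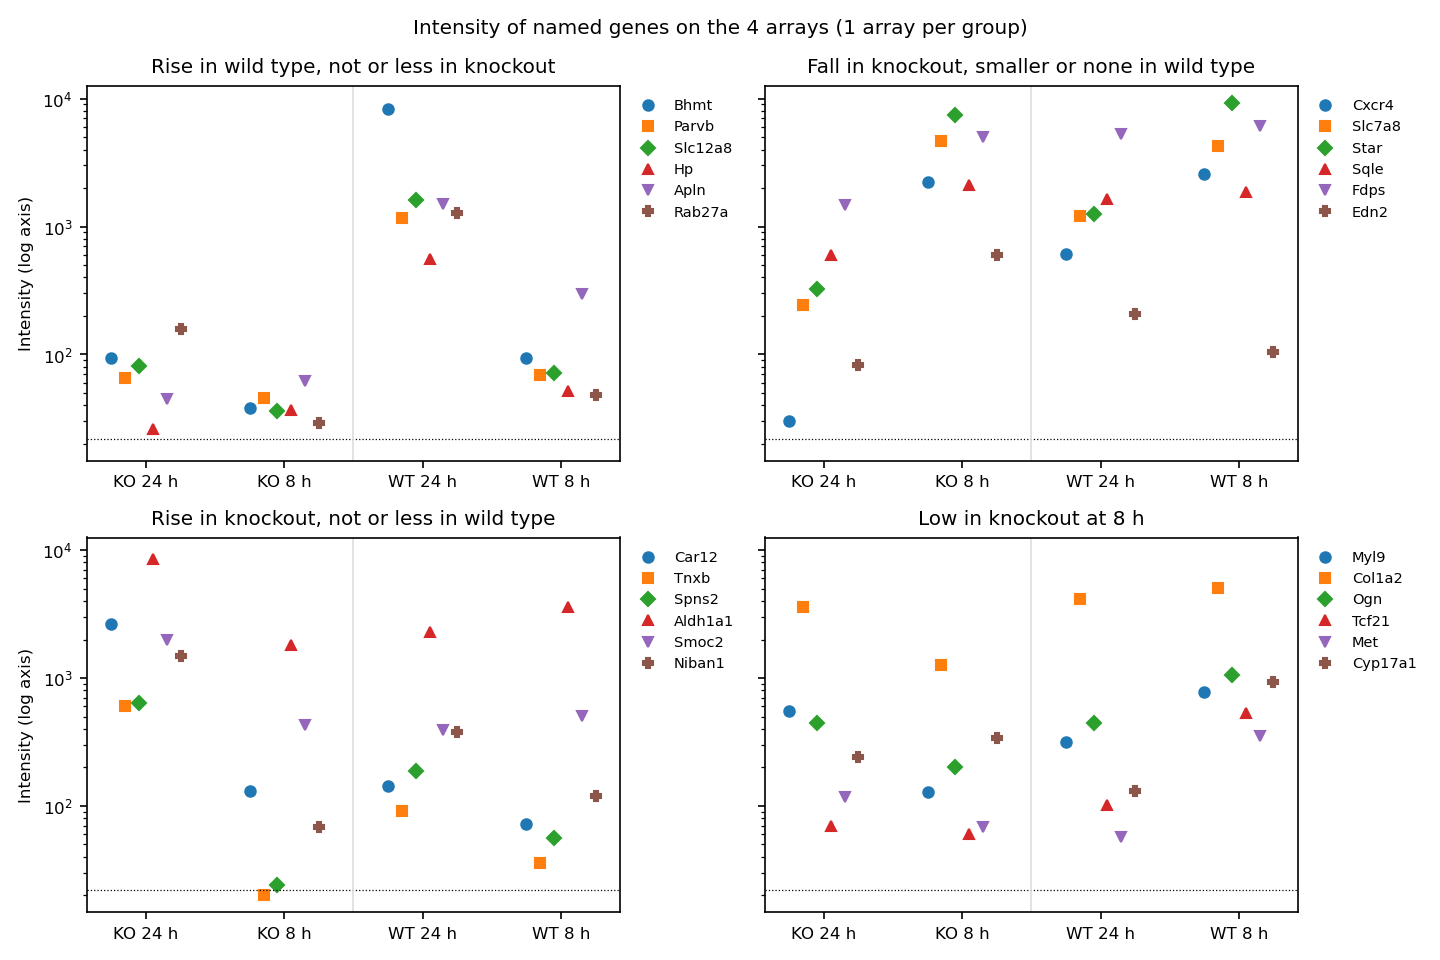
Intensity (log axis) of 24 named genes on the 4 arrays, knockout (KO) left of wild type (WT) and 24 h left of 8 h, 1 point per array; the dotted line is the floor of 22. In the upper left panel wild type at 24 h stands alone, in the lower left panel the knockout at 24 h is highest, and in the lower right panel the knockout at 8 h lies below wild type at 8 h.

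Most cholesterol synthesis genes fell in the knockout between 8 h and 24 h, and fewer did in wild type. Of 20 genes matched, all had a negative interaction, 11 were called lower and none higher, with a median of -1.07 beside 0.06 for all genes considered. The 11 made up 55% of the list, beside 2.81% of all genes considered. In the knockout 13 of the 20 fell by 2-fold and none rose, and in wild type 7 fell and 1 rose. Sqle, squalene epoxidase, was 603 at 24 h and 2095 at 8 h in the knockout, against 1641 at 24 h and 1846 at 8 h in wild type (-1.63). Fdps, farnesyl diphosphate synthase, was 1485 at 24 h and 5052 at 8 h in the knockout, against 5334 at 24 h and 6142 at 8 h in wild type (-1.56), and it was not called with the mean of its probe sets. In both genes 1 array, the knockout at 24 h, stood low and the other 3 lay together. Mvd, which makes isopentenyl diphosphate, was 63 at 24 h and 438 at 8 h in the knockout, against 237 at 24 h and 517 at 8 h in wild type (-1.67). Sc5d, a sterol desaturase, had -1.65 and Cyp51, lanosterol demethylase, -1.33, with second probe sets at -1.21 and -1.36. Aligning the housekeeping list left 5 of the 11 calls.

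The members of the cholesterol list did not all behave alike. Hsd17b7, which also acts on steroids, was 920 at 24 h and 814 at 8 h in the knockout, against 2766 at 24 h and 1150 at 8 h in wild type, so that its interaction of -1.09 came from the rise in wild type. Dhcr7, the last reductase of the pathway, had an interaction of -0.51, because it was lower in the knockout at both times (933 at 24 h and 1120 at 8 h, against 3419 at 24 h and 2877 at 8 h in wild type). Srebf2, the transcription factor that drives the pathway, had -0.54, and Insig1, which retains it in the membrane, had -0.25. In fatty acid synthesis and lipid storage 2 of 23 genes (8.70%) were lower and 3 (13.0%) higher, beside 2.81% and 4.65% of all genes considered. Acly, which makes cytosolic acetyl-CoA, was 2920 at 24 h and 6207 at 8 h in the knockout, against 6634 at 24 h and 5724 at 8 h in wild type (-1.30, not called with the mean of its probe sets). Plin4, a lipid droplet coat protein, and Fabp3, a fatty acid binding protein, rose in both genotypes and more in the knockout (1.41 and 1.80). Plin4 was 1116 at 24 h and 69 at 8 h in the knockout, against 1025 at 24 h and 168 at 8 h in wild type. Fabp3 was 1211 at 24 h and 145 at 8 h in the knockout, against 329 at 24 h and 137 at 8 h in wild type. The second probe set of Fabp3, at 18 to 23 on the 4 arrays, gave 0.06.

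Part of the glycolysis and hypoxia list also had a lower time change in the knockout. Of 26 genes, 21 had a negative interaction, 7 were called lower and none higher, around a median of -0.65. The 7 made up 26.9% of the list, beside 2.81% of all genes considered. The median change was -0.19 in the knockout and 0.48 in wild type. Ldha, lactate dehydrogenase A, was 1874 at 24 h and 3608 at 8 h in the knockout, against 5709 at 24 h and 3322 at 8 h in wild type (-1.73). Pgam1, phosphoglycerate mutase, was 1351 at 24 h and 2229 at 8 h in the knockout, against 4979 at 24 h and 2529 at 8 h in wild type (-1.70). Pgk1, phosphoglycerate kinase, was 2540 at 24 h and 6726 at 8 h in the knockout, against 5567 at 24 h and 4924 at 8 h in wild type (-1.58, second probe set -1.14). In all 3 genes wild type and knockout were close at 8 h and the knockout was the lowest array at 24 h. The hexokinase gene Hk2 differed from these, with values of 197 at 24 h and 125 at 8 h in the knockout, against 1073 at 24 h and 761 at 8 h in wild type, and an interaction of 0.16. With the mean of probe sets, 4 genes of the list were called lower.

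Luteal genes, a list partly drawn up from earlier results on these arrays, had 8 of 18 members lower and 3 higher, with a median of -0.49. Those shares were 44.4% and 16.7%, beside 2.81% and 4.65% of all genes considered. Beside Bhmt, Mmel1, Timp4, Rab27a and Cdkn1b, the lower ones were Star, Parm1 and Cited4. Star, which carries cholesterol into mitochondria, was 327 at 24 h and 7421 at 8 h in the knockout, against 1259 at 24 h and 9231 at 8 h in wild type (-1.63, second probe set -1.53). Parm1, a membrane protein of the luteal cell, was 617 at 24 h and 2463 at 8 h in the knockout, against 3115 at 24 h and 3798 at 8 h in wild type (-1.71). The other genes of progesterone synthesis were not called. Cyp11a1, the side-chain cleavage enzyme, had -0.18, Scarb1, the lipoprotein receptor, -0.54 and Hsd3b1, which makes progesterone, 0.63. In the list of 15 steroidogenesis genes, Star and Hsd17b7 were lower and Akr1c18 higher, around a median of -0.15 that was 0.15 with the housekeeping list aligned.

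The 3 luteal genes with a higher interaction were Akr1c18, Oxtr and Socs2. Akr1c18, an enzyme that inactivates progesterone, was 112 at 24 h and 41 at 8 h in the knockout, against 145 at 24 h and 361 at 8 h in wild type (2.77). It was close in both genotypes at 24 h and lower in the knockout at 8 h. Oxtr, the oxytocin receptor, was 938 at 24 h and 30 at 8 h in the knockout, against 3213 at 24 h and 225 at 8 h in wild type (1.13), lower in the knockout at both times. Ptgfr, the prostaglandin F receptor, was 182 at 24 h and 11 at 8 h in the knockout, against 920 at 24 h and 211 at 8 h in wild type, an interaction of 0.92 that did not reach the threshold.

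Ovulatory response genes fell after 8 h in both genotypes, 18 of 26 in the knockout and 18 of 26 in wild type. Their interaction had a median of -0.39, with 5 lower (19.2%) and 1 higher (3.85%), beside 2.81% and 4.65% of all genes considered. Beside Edn2, the lower ones were Cd44, the hyaluronan receptor (-1.39), the neuropeptide gene Adcyap1 (-1.33), the EGF-like factor Btc (-1.11) and Il6 (-1.05). Btc was 38 at 24 h and 1043 at 8 h in the knockout, against 23 at 24 h and 293 at 8 h in wild type. Adcyap1 was 32 at 24 h and 383 at 8 h in the knockout, against 25 at 24 h and 119 at 8 h in wild type. Both genes were higher in the knockout at 8 h and near the floor in both genotypes at 24 h. Sphk1, a sphingosine kinase, was the higher member (1.15). Of the cumulus matrix genes, Vcan had -0.03, Tnfaip6 -0.23 and Ptx3 -0.52, and Ptgs2, the inducible prostaglandin synthase, had -0.01.

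Immediate early and ERK feedback genes had 6 of 27 members (22.2%) lower and 1 (3.70%) higher, with a median of -0.09. Over all genes considered the shares were 2.81% and 4.65%. Myc was 476 at 24 h and 384 at 8 h in the knockout, against 1322 at 24 h and 325 at 8 h in wild type (-1.71). Dusp1, a phosphatase of MAP kinases, was 268 at 24 h and 612 at 8 h in the knockout, against 1981 at 24 h and 1459 at 8 h in wild type (-1.63). Atf3, a stress-induced factor, was 25 at 24 h and 203 at 8 h in the knockout, against 38 at 24 h and 75 at 8 h in wild type (-2.04). In Myc wild type at 24 h stood high, in Dusp1 the knockout at 24 h was the lowest array, and in Atf3 the knockout at 8 h was the highest. Klf4 had -1.05 and Fosl1 -1.50, and Fosl1 was lost when probe sets were averaged. Dusp6, the phosphatase of ERK, had 1.21.

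In the chemokine and cytokine list 6 of 24 genes (25%) were lower and 4 (16.7%) higher, with a median of -0.15. Over all genes considered the shares were 2.81% and 4.65%. The lower ones beside Cxcr4, Hp, Lif and Il6 were the acute-phase genes Saa3 and Lcn2. Saa3, a serum amyloid, was 141 at 24 h and 44 at 8 h in the knockout, against 757 at 24 h and 96 at 8 h in wild type (-1.30). Cxcl12, the ligand of Cxcr4, went the other way, at 300 at 24 h and 67 at 8 h in the knockout, against 324 at 24 h and 315 at 8 h in wild type (2.12, second probe set 2.55). Cxcl14 had 1.82 and its second probe set 2.09.

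Amino acid transporters had 3 of 21 members (14.3%) lower, beside 2.81% of all genes considered, and none higher. Beside Slc7a8, Slc3a2, the heavy chain that brings Slc7a8 to the membrane, was 1222 at 24 h and 6262 at 8 h in the knockout, against 3250 at 24 h and 5950 at 8 h in wild type (-1.48). Slc1a5, a glutamine transporter, had -1.97, but its second probe set, at 19 to 24 on the 4 arrays, gave -0.13. In one-carbon metabolism Bhmt and Cth, which makes cysteine (-1.32), were lower of 22 genes, around a median of -0.03. That was 9.09%, beside 2.81% of all genes considered. In the clock list Npas2 (-1.93), Bhlhe40 and Arntl (-1.36) were lower and Nfil3 higher (1.73) of 17. Those shares were 17.6% and 5.88%, beside 2.81% and 4.65% of all genes considered. The second probe set of Npas2, at 16 to 23 on the 4 arrays, gave -0.06. Arntl was not called with the mean of its probe sets or without less specific ones.

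In some genes with a high interaction the knockout at 24 h stood above the other 3 arrays. Car12, a membrane carbonic anhydrase, was 2664 at 24 h and 131 at 8 h in the knockout, against 142 at 24 h and 72 at 8 h in wild type. Its interaction was 3.37, and its second probe set gave 1.6. Tnxb, a tenascin, was 607 at 24 h and 20 at 8 h in the knockout, against 91 at 24 h and 36 at 8 h in wild type (3.45). Rasgrf2, an exchange factor for Ras, was 479 at 24 h and 45 at 8 h in the knockout, against 27 at 24 h and 14 at 8 h in wild type, an interaction of 3.12. Its second probe set, at 19 to 27 on the 4 arrays, gave 0.30. Npr3, the clearance receptor of natriuretic peptides, was 115 at 24 h and 23 at 8 h in the knockout, against 13 at 24 h and 35 at 8 h in wild type (2.99, not called with the mean of its probe sets).

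Several of the rises in the knockout were rises in wild type as well. Spns2, the exporter of sphingosine 1-phosphate, was 636 at 24 h and 24 at 8 h in the knockout, against 186 at 24 h and 56 at 8 h in wild type (3.0). Niban1, a stress-responsive gene, was 1490 at 24 h and 69 at 8 h in the knockout, against 378 at 24 h and 119 at 8 h in wild type (2.77, second probe set 2.41). Each started below wild type at 8 h and ended above it at 24 h. Tnnt1, a troponin of slow muscle, was 448 at 24 h and 34 at 8 h in the knockout, against 64 at 24 h and 27 at 8 h in wild type (2.47). Tnni3, the cardiac troponin I gene, which preovulatory granulosa cells express, had 1.38, and the matrix metalloproteinase gene Mmp11 1.23. Bmf, a pro-apoptotic member of the BCL2 family, was 636 at 24 h and 63 at 8 h in the knockout, against 246 at 24 h and 113 at 8 h in wild type, and its 2.21 was not called with the mean of its probe sets.

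Aldh1a1, which makes retinoic acid, and Smoc2, a matricellular calcium binder, parted from wild type at high intensity. Aldh1a1 was 8536 at 24 h and 1822 at 8 h in the knockout, against 2300 at 24 h and 3611 at 8 h in wild type (2.88). Smoc2 was 1994 at 24 h and 428 at 8 h in the knockout, against 391 at 24 h and 505 at 8 h in wild type (2.59, second probe set 1.80). In both genes the knockout at 24 h was the highest array. Of 14 retinoid genes, 4 (28.6%) were higher, namely Aldh1a1, the retinol carrier Rbp4 (2.11), Aldh1a7 (1.57) and Dhrs3 (1.11). Stra6 alone (7.14%) was lower (-1.26), but not with values under 44 raised to 44. Over all genes considered 4.65% were higher and 2.81% lower.

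Markers of stroma and smooth muscle made up the list with the highest median. Of 19 genes, 15 (78.9%) were called higher, beside 4.65% of all genes considered, and none lower, around a median of 1.70. All 15 were at least 2-fold lower in the knockout at 8 h, and none was 2-fold higher there at 24 h. Myl9, the myosin light chain of smooth muscle, which is not in the list, was 553 at 24 h and 129 at 8 h in the knockout, against 318 at 24 h and 784 at 8 h in wild type (3.40). Col1a2, a chain of collagen I, was 3608 at 24 h and 1264 at 8 h in the knockout, against 4150 at 24 h and 5019 at 8 h in wild type (1.79, second probe set 1.73). Tcf21, a mesenchymal transcription factor, was 70 at 24 h and 60 at 8 h in the knockout, against 102 at 24 h and 533 at 8 h in wild type (2.61). Col1a2 was called mainly through the change in the knockout and Tcf21 through the fall in wild type. Next to Tcf21 in the list came Myh11 (2.46) and the pericyte gene Rgs5 (2.43), and Cspg4 (-0.36) and Des (-0.32) were the only members below 0. The list's summed intensity was 13467 at 24 h and 6794 at 8 h in the knockout, against 19932 at 24 h and 30556 at 8 h in wild type. The array of the knockout at 8 h thus had the least stroma signal of the 4. In whole-cell preparations fewer cells of a type and less RNA per cell cannot be told apart.

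Endothelial and theca markers also had positive medians. Of 21 endothelial genes 7 (33.3%) were higher and 1 (4.76%) lower, with a median of 0.73, beside 4.65% and 2.81% of all genes considered. In the knockout at 8 h 15 of the 21 were 2-fold lower, beside 3.59% of all genes considered. The 7 became 4 with values under 44 raised to 44, 3 with a highest value of 100 or more and 11 with the housekeeping list aligned. Plvap, of fenestrated vessels, was 57 at 24 h and 39 at 8 h in the knockout, against 55 at 24 h and 128 at 8 h in wild type (1.77). Without Lyve1, the brightest member, the summed intensity was 2455 at 24 h and 5062 at 8 h in the knockout, against 2256 at 24 h and 5397 at 8 h in wild type, and Cd34, the brightest remaining gene at 8 h, was 197 at 24 h and 3637 at 8 h in the knockout, against 242 at 24 h and 2056 at 8 h in wild type (-1.12). Defining genes were near the floor: Pecam1 was 13 at 24 h and 13 at 8 h in the knockout, against 23 at 24 h and 44 at 8 h in wild type. Ramp2, a receptor partner of adrenomedullin, was 1280 at 24 h and 559 at 8 h in the knockout, against 288 at 24 h and 612 at 8 h in wild type (2.28), the only member 2-fold higher in the knockout at 24 h. Of 8 theca genes 4 (50%) were higher and none lower, with a median of 1.34. They were Cyp17a1, Fbln5, Tcf21, which the stroma list also holds, and Aldh1a1, which the retinoid list also holds. Aldh1a1 was 2-fold higher in the knockout at 24 h, and the other 3 were 2-fold lower there at 8 h. Cyp17a1, the androgen-making enzyme of theca, was 240 at 24 h and 339 at 8 h in the knockout, against 131 at 24 h and 939 at 8 h in wild type (2.34).

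Most of the called markers moved with the other genes that were low in the knockout at 8 h, and their part in those results was not tested. Among such genes were Met, the receptor of hepatocyte growth factor, at 117 at 24 h and 68 at 8 h in the knockout, against 57 at 24 h and 353 at 8 h in wild type (3.41), and Map2, a microtubule protein (2.77). Cldn1, a claudin of tight junctions, was 14 at 24 h and 18 at 8 h in the knockout, against 31 at 24 h and 333 at 8 h in wild type. Its interaction of 3.43 was not called with the mean of its probe sets or without the less specific ones. Igfbp7 had 1.97 and its second probe set 0.02. Bmp4, a growth factor of theca, was 34 at 24 h and 46 at 8 h in the knockout, against 31 at 24 h and 209 at 8 h in wild type (2.32). With Fstl1 (1.54), Id1 (1.34), Id3 (1.12) and Tgfbr1 (1.0) it made 5 higher of 33 TGF-β, BMP and activin genes, with Fstl3 lower (-1.08). Those shares were 15.2% and 3.03%, beside 4.65% and 2.81% of all genes considered. Wnt5a, at 187 at 24 h and 34 at 8 h in the knockout, against 247 at 24 h and 157 at 8 h in wild type (1.81), was called higher in the list of WNT genes and lost when its probe sets were averaged.

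**Figure D4:**
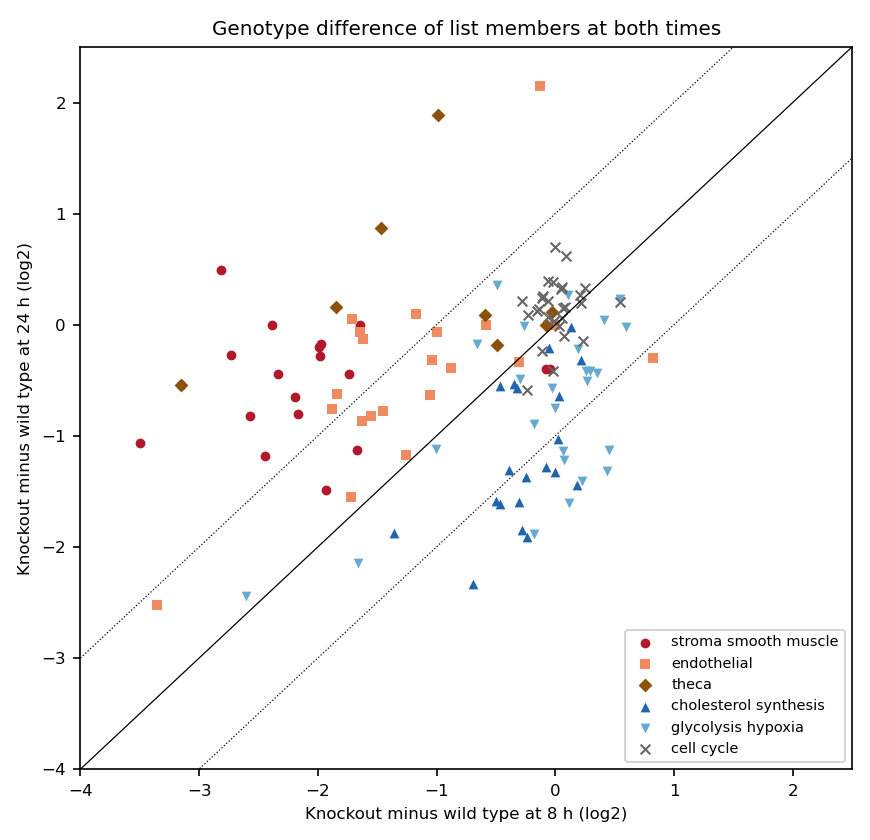
Knockout minus wild type at 24 h (vertical axis) against the same difference at 8 h (horizontal axis), log2, for members of 6 lists; an interaction of 2-fold lies outside the dotted lines. Most stroma markers (17 of 19) and some theca markers (3 of 8) lie left and above, at least 2-fold lower in the knockout at 8 h. Most cholesterol genes (13 of 20) and some glycolysis genes (10 of 26) lie below, at least 2-fold lower at 24 h. Cell cycle genes gather near the origin.

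Matrix genes followed the stroma list, which holds some of them. Of 26 collagen, laminin and other matrix genes 11 (42.3%) were higher and 1 (3.85%) lower, beside 4.65% and 2.81% of all genes considered. The list median was 0.76, and 9 of the 11 were 2-fold lower in the knockout at 8 h. Col3a1 was 3955 at 24 h and 1762 at 8 h in the knockout, against 6211 at 24 h and 8032 at 8 h in wild type (1.54, second probe set 1.41). Tnc, tenascin C, was the exception, at 90 at 24 h and 250 at 8 h in the knockout, against 386 at 24 h and 435 at 8 h in wild type (-1.30). With the mean of probe sets 7 genes of the list were higher. Of 24 proteases and inhibitors 4 (16.7%) were higher, among them Mmp2 (1.62) and Adamts9 (1.54, second probe set 0.11), and Timp4 alone (4.17%) was lower.

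Leukocyte markers were split, with 4 of 18 (22.2%) lower and 3 (16.7%) higher around a median of 0.20. Over all genes considered the shares were 2.81% and 4.65%. The neutrophil genes S100a8 (-2.0) and S100a9 (-1.64) and the pan-leukocyte genes Cd52 (-1.89) and Ptprc (-1.10) were lower, although S100a8 (-0.75) and S100a9 (-0.84) were not called with values under 44 raised to 44, and the macrophage complement genes C1qa, C1qb and C1qc were higher, at 1.34, 1.19 and 1.63. S100a8 was 21 at 24 h and 50 at 8 h in the knockout, against 65 at 24 h and 37 at 8 h in wild type. C1qa was 109 at 24 h and 51 at 8 h in the knockout, against 103 at 24 h and 122 at 8 h in wild type. The list's summed intensity was 1829 at 24 h and 1265 at 8 h in the knockout, against 2716 at 24 h and 1963 at 8 h in wild type. Surface epithelium markers had a median of -0.56 with Upk1b (-1.20) and Krt19 (-1.04) lower of 11 (18.2%). Erythroid markers had 3 members above 22, of which Alas2 (1.33) and Slc4a1 (1.37) were higher. Slc4a1 was not called under 4 other settings, at 0.18 to 0.66, and without less specific probe sets the list median was -0.048 in place of 1.33.

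Lists of cell cycle, respiratory chain and oocyte genes had no call. None of 28 cell cycle genes was called, with a median of 0.11 and a range of -0.40 for Aurka to 0.70 for Bub1b, although 8 of them fell by 2-fold in the knockout and 10 in wild type. None of 25 subunits of oxidative phosphorylation was called, with a median of 0.03 and the lowest value in Uqcrc1 (-0.95). Of 17 oocyte genes none was called, but 16 lay above 0, with a median of 0.60 and the highest value in Dppa3 (0.93). Preovulatory granulosa genes had a median of 0.22, with Tnni3 and Kctd14 (1.08) higher and Slc18a2 lower (-1.07) of 27. These shares were 7.41% higher and 3.70% lower, beside 4.65% and 2.81% of all genes considered. Inha, which encodes the inhibin α subunit, had -0.09, and Foxl2, the granulosa identity factor, 0.18. Of the 17 granulosa markers Star alone was called. In the housekeeping list Pgk1 and Hprt (-1.03) were lower of 13, and Actb had -0.08.

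**Figure D5:**
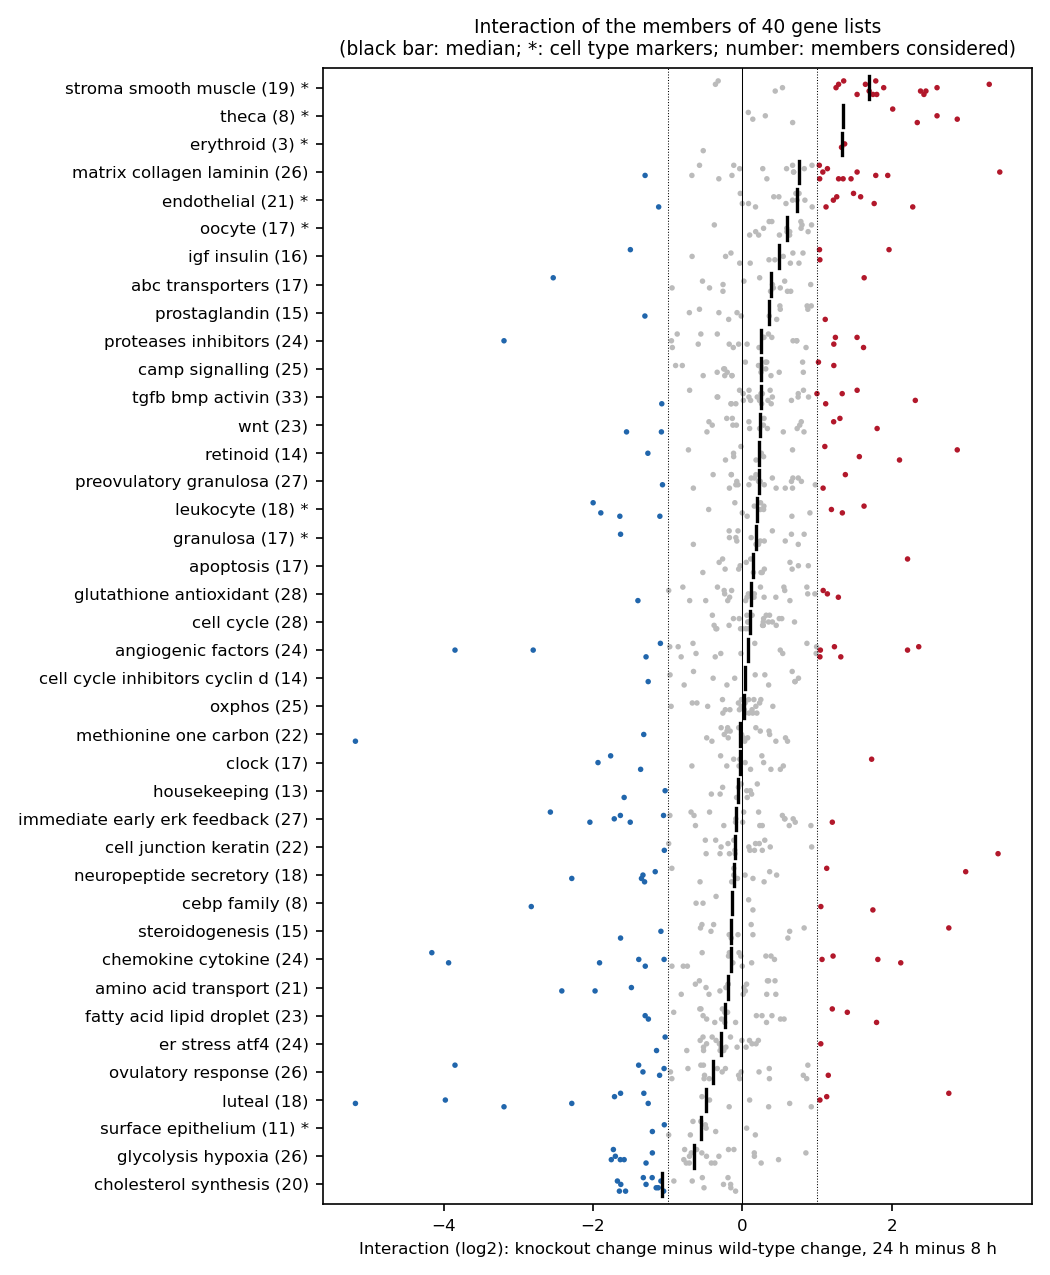
Interaction (log2) of every considered member of 40 lists, ordered by the list median (black bar), with called members in red (higher) and blue (lower) and dotted lines at 2-fold. Stroma and theca markers are at the top, at medians of 1.70 and 1.34, and cholesterol synthesis at the bottom, at -1.07.

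The remaining lists had a few calls each and medians between -0.29 and 0.49. Over all genes considered, 2.81% were called lower and 4.65% higher, and several of these lists lay near those shares. Junction and keratin genes had 4.55% in each direction and ABC transporter genes 5.88% in each. In contrast, 27.8% of the neuropeptide and secretory genes were lower. Of 24 ER stress and ATF4 genes, Asns (-1.15) and Pdia6 (-1.03) were lower and Creb3l1 higher (1.05). Of 16 IGF and insulin genes, Igfbp2 was lower (-1.50) and Igfbp7, Irs1 (1.04) and Foxo3 (1.03) higher. Of 18 neuropeptide and secretory genes 5 were lower, among them Gcg (-1.35) and Scg2 (-1.31), and Npr3 and Oxtr higher. Of 28 glutathione and antioxidant genes, Gss was lower (-1.40), and Gsta3 (1.29), Gstt1 (1.14) and Gstm1 (1.08) higher. With the mean of probe sets Gss (-0.99), Gsta3 (0.26) and Gstm1 (0.86) were not called. Of 17 ABC transporter genes Abcc2 was lower and Abca8a higher (1.63). Of 15 prostaglandin genes Hpgd was lower (-1.30) and Ptgds higher (1.11). Of 25 cyclic AMP genes Pkig (1.23) and Pde3b (1.02) were higher. Cdkn1b was the only call among 14 cell cycle inhibitor and cyclin D genes, and Bmf the only one among 17 apoptosis genes. Of 22 junction and keratin genes, Krt19 was lower and Cldn1 higher. Of 23 WNT genes, Sfrp2 (-1.55) and Wnt4 (-1.08) were lower and Wnt5a, Sfrp1 (1.31) and Wnt6 (1.22) higher. In the C/EBP list of 8, the Tribbles gene Trib2 was called beside Cebpa and Cebpb, at 1.05, but its second probe set, above 22 only in wild type at 24 h, gave -1.37. Of the genes named from these lists, Pdia6, Foxo3, Sfrp1 and Wnt6 were not called with the mean of probe sets, Hpgd without less specific ones, and Scg2 with values as measured. Irs1, Foxo3, Pde3b and Creb3l1 were not called with array medians aligned, and Asns, Pdia6, Wnt4 and Krt19 were not with the housekeeping list aligned.

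The threshold separated like values. Just inside it lay Tgfbr1 and Skil on the higher side and Get4 and Znrf3 on the lower side, and just outside lay Pgbd5, Aamdc, Babam2 and Dctd, all at 1.0 or -1.0 after rounding. How often a gene was called varied with its intensity. Of 3586 genes whose highest value lay from 22 to under 100, 1.17% were called lower and 3.90% higher, and of 1454 genes reaching 1600 or more, 4.88% were lower and 3.65% higher. At least 1 value had been raised to 22 in 51 of the lower and 80 of the higher genes.

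Promoters were searched because C/EBP proteins bind a known sequence and because the sterol genes moved together. The C/EBP type motif TTGCNNAA, counted on both strands, was found in 31 of 292 promoters of lower genes (10.6%), in 48 of 466 promoters of higher genes (10.3%) and in 7.94% of the 10722 promoters of all genes considered. The promoters are RefSeq sequences of GRCm38.p6 from 250 bases before to 50 after the gene start, used for their letters only. The sterol response motif TCACNCCAC was found in 1 of 16 promoters of the cholesterol list and in 1.13% of all promoters. No match of the 2 motifs overlapped another. A match is a description of these letters and not a bound site. The sequences shown, 5′ to 3′, are those of the most negative and the most positive called gene with the C/EBP type motif and of the called sterol gene with the sterol motif, each with its match in capitals. Chst1 lies at chr2:92600867-92601166 on the + strand, Fmod at chr1:134037004-134037303 on the + strand and Hmgcs1 at chr13:119690101-119690400 on the + strand.
Chst1: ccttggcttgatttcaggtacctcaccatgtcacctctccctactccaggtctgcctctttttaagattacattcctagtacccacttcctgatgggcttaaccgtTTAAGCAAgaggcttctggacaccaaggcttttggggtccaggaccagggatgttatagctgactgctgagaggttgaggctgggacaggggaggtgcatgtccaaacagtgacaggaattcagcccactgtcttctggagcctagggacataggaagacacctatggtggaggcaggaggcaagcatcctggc
Fmod: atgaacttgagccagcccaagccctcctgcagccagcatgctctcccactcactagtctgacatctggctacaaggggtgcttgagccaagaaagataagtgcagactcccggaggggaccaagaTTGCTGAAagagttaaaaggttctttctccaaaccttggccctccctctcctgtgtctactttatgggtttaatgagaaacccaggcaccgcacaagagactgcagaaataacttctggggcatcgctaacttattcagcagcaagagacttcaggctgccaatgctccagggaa
Hmgcs1: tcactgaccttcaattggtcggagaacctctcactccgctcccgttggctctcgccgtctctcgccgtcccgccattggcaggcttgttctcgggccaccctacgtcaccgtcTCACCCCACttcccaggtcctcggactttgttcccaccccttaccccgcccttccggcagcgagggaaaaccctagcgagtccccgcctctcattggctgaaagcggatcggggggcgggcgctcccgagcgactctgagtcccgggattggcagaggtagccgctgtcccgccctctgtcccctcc
Chst1, a sulfotransferase of keratan sulfate, was 100 at 24 h and 419 at 8 h in the knockout, against 758 at 24 h and 288 at 8 h in wild type (-3.46), and its match began 144 bases before the gene start. Fmod, the collagen-binding proteoglycan fibromodulin, was 59 at 24 h and 17 at 8 h in the knockout, against 42 at 24 h and 155 at 8 h in wild type (3.31), with a match 125 bases before the start. Hmgcs1, the first committed synthase of the sterol pathway, was 3052 at 24 h and 7759 at 8 h in the knockout, against 6221 at 24 h and 7622 at 8 h in wild type (-1.05), with a match 137 bases before the start.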

How the data were processed

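The authors' deposited table holds 1 intensity for each of 45101 probe sets on each of 5 Affymetrix arrays, made from biotin-labelled cRNA of 5 ug total RNA per the labels' protocols. Of tools, affy and RMA are named in the submitters' processing notes, with no versions. The values are whole numbers on a linear scale from 4 upward, so log2 was taken here. Medians of the 4 arrays used were 31 or 32. Gene symbols came from the platform annotation, updated by Entrez identifier (34958 had 1 symbol, 932 several and 9211 none listed; 34754 matched RefSeq genes of GRCm38.p6, used for names only). For each gene the probe set of highest mean log2 value over the 4 arrays was kept. Calculations used Python 3.11.15, numpy 2.4.6 and pandas 2.3.3, and were tested on simulated data. With 1 array per group there is no test. The number of arrays limits the precision, and p-values are not given.

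Named genes were Cebpa and Cebpb, the 15 lowest and 15 highest interactions, the 4 largest of each combination of time changes with a value of 200 or more, up to 5 called members (or, with none called, 2 members) of each of 32 gene lists and 8 marker lists, the genes with opposite time changes, and 2 genes on each side of each threshold. Oxtr, Ptgfr, Hk2 and other list members given for contrast were chosen after their values were seen. The members and lists were chosen with earlier results of these data known. The alternatives were other choices of probe set, floor, filter, threshold and 3 scalings.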

Additional observations from a re-analysis of the deposited data

Results flagged for a closer look

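The 11 genes whose time changes reached 2-fold in opposite directions in the knockout and in wild type deserve a closer look. With 1 array per group the difference was not tested. Both genes that fell in the knockout and rose in wild type were Chst1 (-3.46) and Pla1a, a phospholipase (-2.27), which was 190 at 24 h and 441 at 8 h in the knockout, against 943 at 24 h and 455 at 8 h in wild type. The other 9 rose in the knockout and fell in wild type. Smpx, a small muscle protein, had the highest interaction of all genes (3.68), at 134 at 24 h and 57 at 8 h in the knockout, against 24 at 24 h and 131 at 8 h in wild type. Myl9 (3.40), Fmod (3.31), the lysyl oxidase gene Loxl3 (2.72), the microfibril gene Mfap5 (2.54), Ogn (2.39) and Tril (2.36) were at least 2-fold lower in the knockout at 8 h, as was Akr1c18 (2.77), and the stroma list was low on the same array. Ramp2 (2.28) was 2-fold higher in the knockout at 24 h and close to wild type at 8 h.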

How the results depend on the processing

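No paired analysis was possible because each group has 1 array, and no array could be left out for the same reason. The results were recomputed with 3 other choices of probe set, 2 other floors, 2 other filters, 2 other thresholds and 3 scalings. With the housekeeping mean aligned there were 1224 genes higher and 197 lower, of which 5 in the cholesterol list were lower and 11 endothelial markers higher. A 1.5-fold threshold gave 1729 higher and 1069 lower, and a 3-fold threshold 180 and 122. With the mean of all probe sets, 414 genes were higher and 316 lower, 672 of the 995 calls were shared, 4 glycolysis genes were lower, 7 matrix genes were higher, and the stroma median was 1.26. Without less specific probe sets 4 glycolysis genes were lower. Raising values under 44 to 44 left 4 endothelial markers higher, and a highest value of 100 or more left 3. The signs of Fabp4 (0.084 with the mean of all probe sets, 0.54 without less specific ones) and Trib2 (-0.24 and -1.37) reversed, as did the erythroid median without less specific probe sets (-0.048). The cause was not tested. Of 165 named calls, 115 held with the mean of probe sets and all 3 scalings. Of 40 list medians 18 changed sign in some setting, mostly those near 0. Values near 22, where whole-number rounding is coarse, limit the dim genes.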
